A study of Caenorhabditis nigoni and Caenorhabditis briggsae with 14 samples.

Results

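In 112 of the 23439 genes listed, messenger RNA differed at least 4-fold between males and females of the Caenorhabditis briggsae strain AF16, while the sexes of the related Caenorhabditis nigoni strain JU1421 stayed within 2-fold of each other. Of these genes, 61 were higher in AF16 males and 51 were higher in the AF16 female library. They are called male-biased and female-biased below, in each case in AF16 only. They were chosen by their measured values. Levels were CPM (the count of a gene scaled to a common total of all gene counts per library), and the sex ratio was the mean CPM of 3 male libraries plus 1 over the CPM of the female library plus 1. A gene entered with an AF16 sex ratio of at least 4 or at most its inverse, at least 10 CPM in the higher AF16 sex, a JU1421 sex ratio within 2-fold either way and at least 5 CPM on average in JU1421 males.

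RNA came from whole young adult worms, 300 animals pooled per library, and was compared across 4 strains. ZZY10330 and ZZY10307 males are sterile and have a mostly C. nigoni genome in which a stretch of the X chromosome is replaced by that of C. briggsae, from 16.4 Mb to its end in ZZY10330 and from 4.5 to 12.2 Mb in ZZY10307. Both kinds of sterile males were sons of introgression-carrying females and JU1421 males, picked by green fluorescence driven by the cbr-myo-2 promoter, a pharyngeal muscle promoter, whereas the labels give no such marker for the parental animals. AF16 is wild-type C. briggsae and JU1421 is wild-type C. nigoni, and the males of both are labelled fertile. Each strain had 3 male libraries, and AF16 and JU1421 had 1 female library each. Whether replicate libraries of a strain stem from separate cultures is not in the labels. The p-values below therefore reflect the spread among these libraries alone, which may be technical.

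In Caenorhabditis, animals with a pair of X chromosomes develop as females or hermaphrodites, and animals with a single X, inherited from the mother, develop as males. Much of the difference between adult male and female transcriptomes in these worms comes from the germ line, which makes sperm in males and oocytes in females. C. nigoni has separate males and females, whereas XX animals of C. briggsae are ordinarily hermaphrodites that make sperm for a time before they make oocytes; the labels call the AF16 XX animals females. The files give WormBase identifiers without names or positions, so no function and no place on the X chromosome is given for any gene below. The sources used here do not give how reads of 2 species were assigned to 1 gene list, and its part in differences between AF16 and JU1421 was not tested.

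Library totals ranged from 2372653 to 3785106 counts. Between 12516 and 15231 listed genes had at least 1 count, the fewest in ZZY10330 replicate 2, which had the largest total. Replicate libraries differed by more than sampling noise, with a chi-square per degree of freedom of 7.01 to 25.6. Their correlation across genes in log2 CPM was 0.769 to 0.859 for ZZY10330 and 0.887 to 0.920 for the other strains. The sex of the libraries was not checked with marker genes, because the files do not pair identifiers with names.

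The sex ratios that chose the genes are given as a description, without a test. Among all 9531 genes that reached 10 CPM in the higher AF16 sex, 16.5% had a male-biased and 7.60% a female-biased AF16 ratio. Of the 4248 genes that met every condition apart from the AF16 ratio, 1.44% were male-biased and 1.20% female-biased. A far larger group, 1272 male-biased and 512 female-biased genes, had a bias of 4-fold or more in both strains. These genes had to reach 10 CPM in the higher AF16 sex but, unlike the members, no minimum level in JU1421 males. Applied the other way round, with JU1421 as the biased strain, the same rule found 96 male-biased and 158 female-biased genes.

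**Figure D1:**
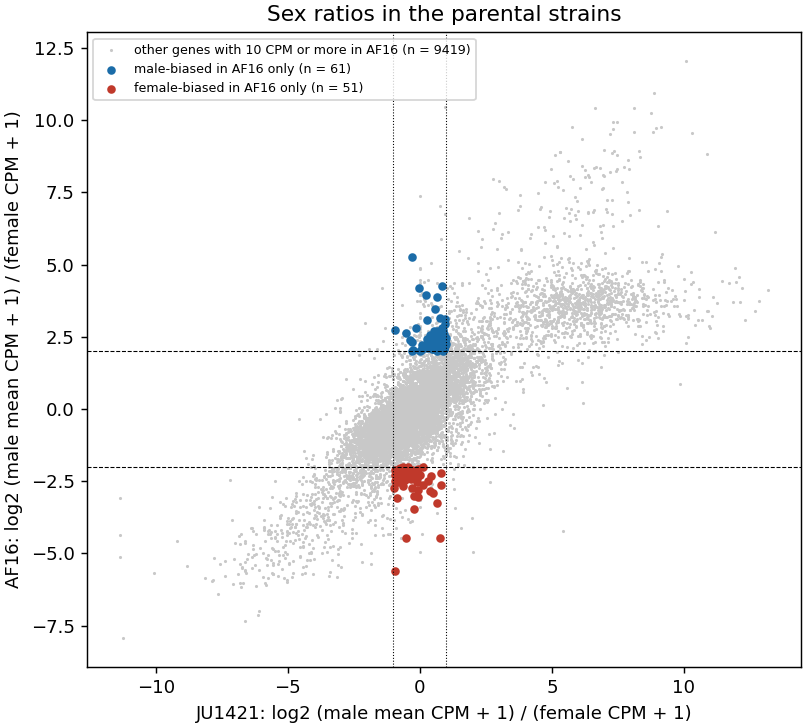
Sex ratios of genes in AF16 (vertical axis) and JU1421 (horizontal axis), both as log2 of the male mean CPM plus 1 over the female CPM plus 1, for all genes that reached 10 CPM in the higher AF16 sex. The 61 male-biased genes lie above the upper dashed line and the 51 female-biased genes below the lower one, all between the dotted lines that mark a 2-fold ratio in JU1421.

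Many members lay near the threshold. The median AF16 ratio in the direction of bias was 5.05 for male-biased genes (quartiles 4.38 and 6.50) and 5.25 for female-biased genes (4.64 and 6.51). Below 5-fold lay 30 male-biased and 24 female-biased genes, and 9 and 8 genes reached 8-fold. The male-biased genes nearest to the threshold had ratios of 4.01 and 4.03, and those just outside it, otherwise eligible, had 3.98 and 3.96. On the female side, the inner pair stood at 4.01 and 4.03 and the outer pair at 3.96 and 3.94. In JU1421 the members often leaned the same way by less than 2-fold: 51 of 61 male-biased genes were higher in JU1421 males (median ratio 1.56) and 41 of 51 female-biased genes were higher in the JU1421 female library (median 1.26).

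The 4 genes with the largest ratios show what the rule picked. WBGene00041607 had 37.7, 39.6 and 35.4 CPM in AF16 males. The AF16 female library held no count of it, which put the males at least 36.5-fold higher when 3 counts were taken as the floor. In JU1421 it was not male-biased, with 37.4, 41.1 and 63.5 CPM in males and 57.7 CPM in the female library. Among these parental libraries, the AF16 female library stood apart from all others.

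WBGene00030262 had 713, 648 and 593 CPM in AF16 males and 33.3 CPM in the AF16 female library, which gave a ratio of 19.0. The JU1421 libraries were all low, with 5.28, 7.54 and 3.63 CPM in males and 2.64 CPM in the female library. All AF16 libraries of this gene, male and female, lay above every JU1421 library.

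On the female side, WBGene00035964 had 9.42, 10.3 and 2.26 CPM in AF16 males and 404 CPM in the AF16 female library, 48.6-fold higher in the female library. In JU1421 it had 306, 37.3 and 178 CPM in males and 331 CPM in the female library, so that the JU1421 males spread widely below the female value. WBGene00027949 had no count in any AF16 male library and 21.3 CPM in the AF16 female library, at least 66.7-fold higher with 3 counts over the 3 male libraries as the floor. In JU1421 males it stood at 44.9, 46.9 and 43.9 CPM, and in the JU1421 female library at 65.9 CPM. This gene was therefore present in both sexes of JU1421 and, in AF16, was seen in the female library only.

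Depth set how firmly single genes could be placed. The median count of a male-biased gene in the AF16 female library was 18, and 18 of the 61 had under 10 counts there. Among the female-biased genes, 11 of 51 had under 20 counts over the 3 AF16 male libraries. Exact 95% binomial intervals were taken of the ratio of male counts, pooled over libraries, to female counts, scaled by totals, without the added constant. The AF16 interval lay wholly beyond 2-fold for all 61 and all 51 genes, and wholly beyond 4-fold for 23 and 32 of them. The JU1421 interval lay wholly within 2-fold for only 20 of 61 male-biased and 33 of 51 female-biased genes. The AF16 and JU1421 intervals did not overlap for 51 male-biased and 51 female-biased genes. All of these counts follow in part from the rule, since the same parental libraries chose the genes. These intervals and the floors above cover counting error only, and with 1 female library per strain the female side has no replicate. Input RNA and read length are stated for males but not for females, so a difference in library making cannot be told apart from sex.

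Replicates moved genes across the threshold. Taken singly, every AF16 male library gave a ratio past 4-fold for 33 of 61 male-biased and 20 of 51 female-biased genes. When each parental male library was left out in turn, 24 male-biased and 26 female-biased genes remained members in all 6 cases. WBGene00041607 and WBGene00027949 remained in all 6, WBGene00035964 in 5 and WBGene00030262 in 4.

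Over all 14 libraries, the male-biased genes were high in ZZY10330 and AF16 males and low in JU1421 males and in both female libraries. Their median level was 38.7 CPM in ZZY10330, 28.6 in ZZY10307, 38.0 in AF16 males and 15.9 in JU1421 males, beside 6.17 in the AF16 female library and 9.66 in the JU1421 one. Together they took 1.001 ± 0.167% of gene counts in ZZY10330, 0.391 ± 0.0149% in ZZY10307, 0.750 ± 0.0257% in AF16 males and 0.219 ± 0.0111% in JU1421 males (SD, n = 3 each). The AF16 female library gave 0.101% and the JU1421 female library 0.163%. The male strains did not overlap in this share: ZZY10330 spanned 0.872 to 1.19%, AF16 0.731 to 0.779%, ZZY10307 0.376 to 0.405% and JU1421 0.206 to 0.226%.

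The top of that order rested on a pair of genes. Without WBGene00030261 and WBGene00038923, the 2 male-biased genes with the highest mean over the 14 libraries, the shares were 0.565 ± 0.0888% in ZZY10330, 0.289 ± 0.00956% in ZZY10307, 0.530 ± 0.0514% in AF16 males and 0.207 ± 0.0143% in JU1421 males (SD, n = 3 each). ZZY10330, at 0.5004 to 0.666%, then overlapped AF16, at 0.495 to 0.589%. ZZY10307 still lay apart from JU1421. The shares are descriptions, since the JU1421 and AF16 levels chose the genes. Shares and CPM are scaled by total counts alone. With that scaling the median log2 fold change over JU1421 of all genes tested was 0.48 in ZZY10307 and 0.20 in ZZY10330. With the scaling of the tests below it was 0.09 and -0.03. Part of a difference in share between these strains can therefore come from the scaling. In whole worms, more cells of a type and more RNA per cell cannot be told apart.

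The female-biased genes were low in AF16 males alone among the males. Their median level was 27.1 CPM in ZZY10330, 35.8 in ZZY10307, 7.33 in AF16 males and 27.2 in JU1421 males, beside 51.4 in the AF16 female library and 35.1 in the JU1421 one. Their summed share was 0.403 ± 0.0313% in ZZY10330, 0.566 ± 0.0289% in ZZY10307, 0.219 ± 0.0249% in AF16 males and 0.559 ± 0.0306% in JU1421 males (SD, n = 3 each), and 1.21% and 0.786% in the AF16 and JU1421 female libraries. ZZY10307, at 0.549 to 0.600%, overlapped JU1421, at 0.524 to 0.583%. ZZY10330, at 0.369 to 0.432%, lay below both and above AF16, at 0.191 to 0.237%. These levels and shares are likewise scaled by total counts alone, which raised most genes in ZZY10307 over JU1421. Relative to the median of all genes tested, the median log2 fold change of the female-biased genes in ZZY10307 over JU1421 was -0.44.

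**Figure D2:**
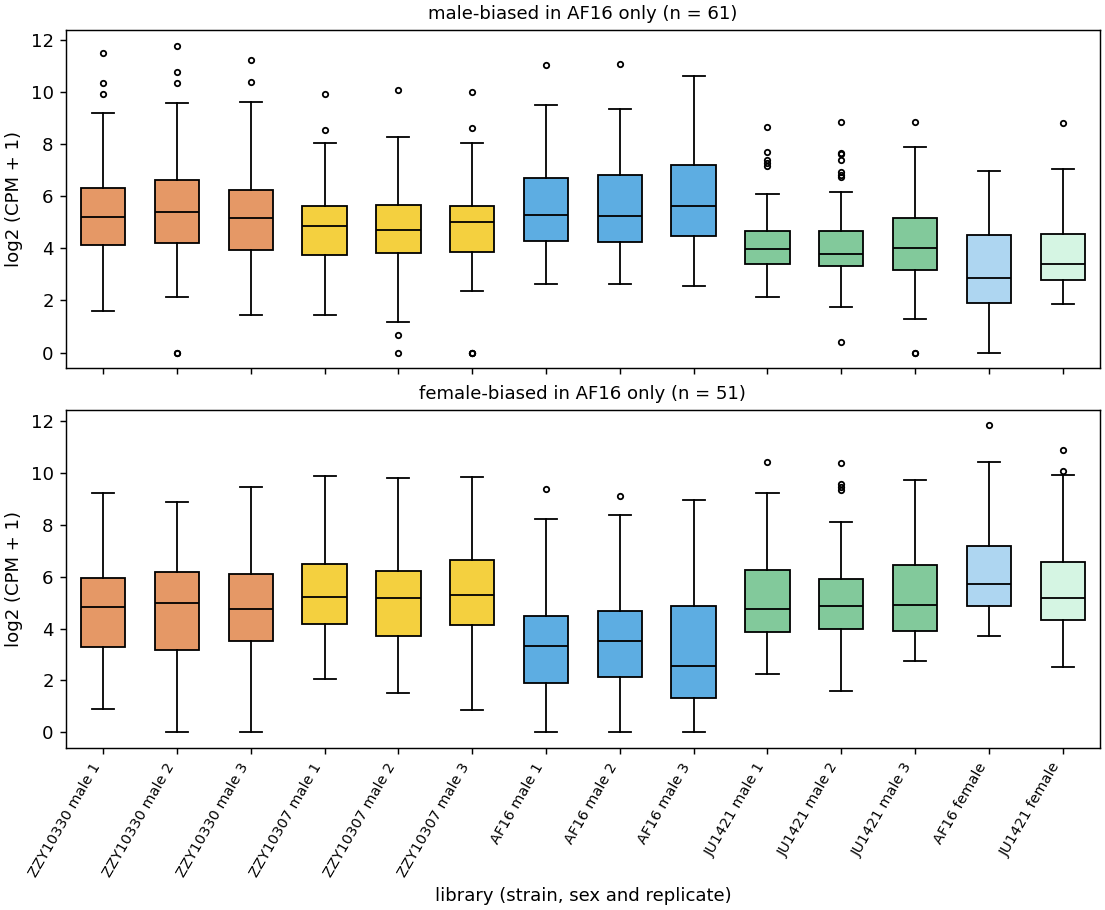
Levels of the 61 male-biased genes (upper panel) and the 51 female-biased genes (lower panel) in each of the 14 libraries, as log2 of CPM plus 1. Boxes span the quartiles with the median as a line, whiskers reach 1.5 times the box and points are genes beyond them; in the lower panel the medians of the AF16 males lie below those of all other libraries.

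A sex ratio can differ between strains because the males differ, because the females differ, or both. The strain difference of each gene was therefore split into a male part and a female part, each the log2 of CPM plus 1 in AF16 minus that in JU1421. In the direction that gives the bias, the male part had a median of 1.07 and the female part of 0.58 among male-biased genes. Counted toward the bias, the male part alone reached 2-fold in 31 genes, the female part alone in 19, both in 2 and neither in 9. These counts leave out differences the other way. The female part was 2-fold or more against the bias in 7 male-biased genes, and the male part in 1. Genes under 1 part alone can thus differ between the strains in both sexes. The female-biased genes were more one-sided, with medians of 1.64 for the male part and 0.33 for the female part. Toward the bias, their male part alone reached 2-fold in 38 genes, the female part alone in 8, both in 3 and neither in 2. Against the bias, the female part reached 2-fold in 1 of them and the male part in 2.

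The libraries show the same split without a threshold on size. All 3 AF16 male libraries lay above all 3 JU1421 male libraries in 37 of 61 male-biased genes and below them in 2. Among the female-biased genes they lay below in 41 of 51 and above in 1. Of the 4136 other eligible genes, which met every condition but had an AF16 ratio under 4-fold, 21.7% had AF16 males wholly above and 18.5% wholly below JU1421 males, and the male part reached 2-fold, either way, in 17.3% and the female part in 9.86%. These counts follow in part from the rule, which asks for a difference in sex ratio, and are a description.

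Some members differed more between the female libraries than between the males. WBGene00024619, chosen after its values were seen, had 120.2, 158 and 205 CPM in AF16 males against 403, 460 and 463 CPM in JU1421 males. In the female libraries it had 7.89 CPM in AF16 and 450.3 CPM in JU1421, a female part of -5.67, larger than the male part of -1.45. It was male-biased in AF16 although AF16 males had less of it than JU1421 males. WBGene00041607 was of the same kind, with a female part of -5.87 and a male part of -0.32.

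In other members, AF16 was higher in both sexes. WBGene00030261 had 2082, 2150 and 1545 CPM in AF16 males against 5.28, 7.19 and 5.44 CPM in JU1421 males. Its female levels were 124 CPM in AF16 and 4.98 CPM in JU1421. The male part was 8.11 and the female part 4.38. WBGene00030262, whose identifier follows directly on that of WBGene00030261, had a male part of 6.65 and a female part of 3.24.

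The female-biased WBGene00027246, also chosen after its values were seen, had 9.10, 19.3 and 17.7 CPM in AF16 males against 4.53, 2.06 and 9.43 CPM in JU1421 males. In the female libraries it had 180.4 CPM in AF16 and 6.44 CPM in JU1421. Its female part was 4.61 and its male part 1.37, so the AF16 female library set it apart. WBGene00027949 was the reverse, with a male part of -5.53 from its absence in AF16 males and a female part of -1.59.

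**Figure D3:**
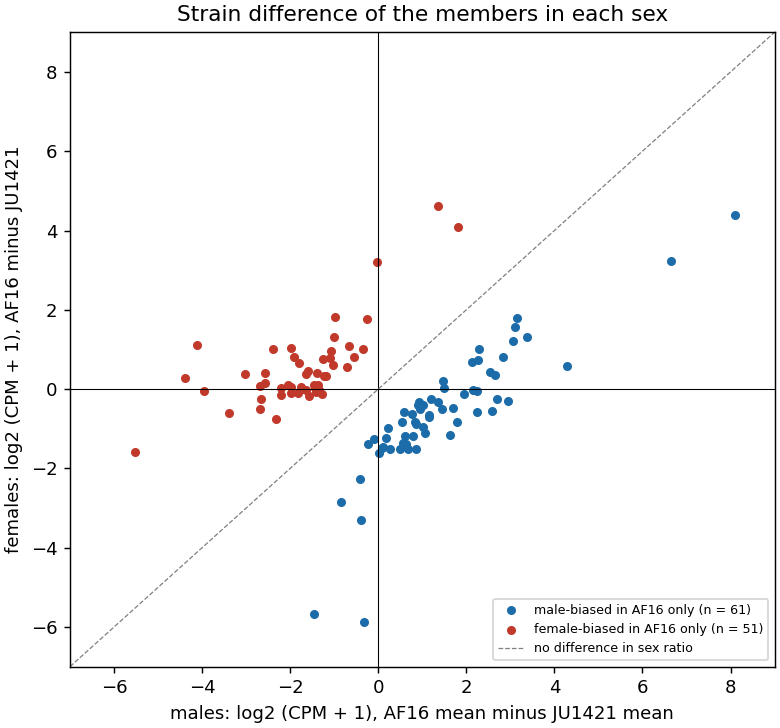
Difference between AF16 and JU1421 in males (horizontal axis) and in females (vertical axis) for each of the 112 genes, as log2 of CPM plus 1 in AF16 minus JU1421. Genes on the dashed diagonal would have the same sex ratio in both strains. Male-biased genes lie below it and female-biased genes above it. Counted toward the bias, 38 of the 51 female-biased genes reach 2-fold on the horizontal axis only. On the vertical axis, 1 of the 51 reaches 2-fold against the bias.

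The members were also compared in the sterile males, which have a mostly C. nigoni genome with a piece of the C. briggsae X. Sterility, the cross and the picking by fluorescence cannot be told apart from that piece. Strains were compared with edgeR's quasi-likelihood test on the 12 male libraries, with Benjamini-Hochberg adjustment over 13289 genes, and a gene is called higher or lower where its adjusted p was below 0.05. All 112 members were tested. The JU1421 males helped to choose the members through their level and their sex ratio, and both sterile strains are set against the same JU1421 libraries, so the comparisons with JU1421 are not independent of the rule or of each other. The comparison of ZZY10330 with ZZY10307 sets against each other libraries that did not choose the genes, although the parental males enter the shared filter, scaling and spread of the fit.

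In ZZY10307 males, 13 of 61 male-biased genes were higher than in JU1421 and 8 were lower, where 22.8% of all genes tested were called, 9.29% higher and 13.5% lower. Of the 4136 other eligible genes, 10.7% were higher and 10.3% lower. The median log2 fold change of the male-biased genes was 0.41, against 0.09 over all genes. Of the 51 female-biased genes, 1 was higher and 4 were lower, with a median of -0.35. Scaling by total counts alone moved the median of all genes to 0.48 and the calls to 23 higher and 6 lower among male-biased genes and to 4 higher and 1 lower among female-biased genes. Relative to the median of all genes, the male-biased median was 0.32 with TMM scaling and 0.30 with total counts, and the female-biased median -0.44 with both.

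The 13 higher genes ranged in log2 fold change from 0.92 to 2.70. WBGene00038923 had 954, 1071 and 1007 CPM in ZZY10307 males against 151, 122 and 80.5 CPM in JU1421 males, a log2 fold change of 2.70 (SE 0.25, edgeR adjusted p = 8.35e-08). All ZZY10307 libraries also lay above those of AF16 males, at 284, 179 and 357 CPM. WBGene00037049 had 91.9, 90.5 and 70.3 CPM in ZZY10307 males against 14.7, 12.7 and 9.43 CPM in JU1421 males, a log2 fold change of 2.38 (SE 0.29, edgeR adjusted p = 2.63e-06). Its ZZY10307 levels overlapped those of AF16 males, at 106.9, 76.8 and 97.5 CPM.

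The 8 lower male-biased genes ranged from -0.74 to -5.07. WBGene00041606 had 1.74, 0 and 0 CPM in ZZY10307 males against 14.3, 12.7 and 22.1 CPM in JU1421 males, a log2 fold change of -5.07 (SE 0.79, edgeR adjusted p = 8.38e-05). WBGene00041607, next to it by identifier, had 3.83, 1.84 and 0 CPM in ZZY10307 against the JU1421 values given above, a log2 fold change of -4.94 (SE 0.64, edgeR adjusted p = 5.80e-06), or -5.87 without ZZY10307 replicate 1. Both were thus nearly absent from ZZY10307 males although AF16 and JU1421 males had them, WBGene00041606 at 82.5, 107 and 121 CPM in AF16. Without ZZY10307 replicate 1, which held all 5 counts of WBGene00041606, that group had no count left of it.

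The female-biased gene called higher, WBGene00029304, was chosen after its values were seen. It had 206, 223 and 198.7 CPM in ZZY10307 males against 56.2, 63.0 and 53.3 CPM in JU1421 males, a log2 fold change of 1.46 (SE 0.20, edgeR adjusted p = 1.46e-05). AF16 males had 168, 238 and 206 CPM, overlapping ZZY10307, and the AF16 female library had 995 CPM. The 4 female-biased genes called lower ranged from -0.66 to -2.63. The count of 5 female-biased calls fell to 2 without JU1421 replicate 1, JU1421 replicate 2 or ZZY10307 replicate 3 and to 3 without ZZY10307 replicate 2, and was 12 when the libraries of ZZY10307 and JU1421 were fitted alone.

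In ZZY10330 males, 25 of 61 male-biased genes were higher than in JU1421 and 4 were lower, where 28.6% of all genes tested were called, 12.6% higher and 16.1% lower. Among the 4136 other eligible genes these shares were 18.0% and 17.2%. The median log2 fold change of the male-biased genes was 1.02, against -0.03 over all genes. Of the female-biased genes, 1 was higher and 12 were lower, with a median of -0.75. With scaling by total counts alone, which moved the median of all genes to 0.20, the calls were 33 higher and 3 lower among male-biased genes and 2 higher and 8 lower among female-biased genes. Without JU1421 replicate 2, 7 female-biased genes were called in place of 13.

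The 2 largest changes among the members were in genes with consecutive identifiers. WBGene00030261 had 2840, 3488 and 2398 CPM in ZZY10330 males against 5.28, 7.19 and 5.44 CPM in JU1421 males, a log2 fold change of 8.66 (SE 0.36, edgeR adjusted p = 8.13e-13). WBGene00030262 had 964, 1275 and 665.5 CPM in ZZY10330 males against 5.28, 7.54 and 3.63 CPM in JU1421 males, a log2 fold change of 7.19 (SE 0.48, edgeR adjusted p = 4.73e-08). Every ZZY10330 library of WBGene00030261 lay above the AF16 male libraries, whereas those of WBGene00030262 overlapped them. The remaining male-biased genes called higher reached lower folds, and the median of all 25 was 1.84.

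WBGene00038923 was higher here too, at 1308, 1749 and 1315 CPM in ZZY10330 males, a log2 fold change of 3.38 over JU1421 (SE 0.26, edgeR adjusted p = 1.35e-08). Among the 4 male-biased genes called lower, WBGene00041607 had 10.7, 19.8 and 4.64 CPM in ZZY10330 males against 37.4, 41.1 and 63.5 CPM in JU1421 males, a log2 fold change of -2.25 (SE 0.53, edgeR adjusted p = 0.00302). The groups did not overlap.

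Of the female-biased genes, WBGene00031173 had the largest decrease. It had 3.19, 0 and 3.79 CPM in ZZY10330 males against 24.5, 36.6 and 16.7 CPM in JU1421 males, a log2 fold change of -3.75 (SE 1.06, edgeR adjusted p = 0.0139), and without JU1421 replicate 2 its adjusted p was 0.0513. Without ZZY10330 replicate 2 the log2 fold change was -3.10. AF16 males were likewise low, at 0, 3.26 and 1.51 CPM. WBGene00027246, the female-biased gene called higher, had 59.2, 38.3 and 131 CPM in ZZY10330 males against 4.53, 2.06 and 9.43 CPM in JU1421 males, a log2 fold change of 3.64 (SE 0.57, edgeR adjusted p = 7.87e-05). It was 2.92 without ZZY10330 replicate 3 and 4.31 without JU1421 replicate 3, and called in both cases. All ZZY10330 libraries lay above those of AF16 males. WBGene00027949, absent from AF16 males, had 27.3, 34.6 and 19.4 CPM in ZZY10330 males, a log2 fold change of -0.99 over JU1421 (SE 0.36, edgeR adjusted p = 0.0488). This call was lost without any single library of either strain other than ZZY10330 replicate 2, with adjusted p of 0.0906 to 0.142. WBGene00035964, with 41.8, 127 and 132 CPM in ZZY10330 males, was not called against JU1421 (log2 fold change -0.99, SE 0.70, edgeR adjusted p = 0.344), although it was with no filter on low counts (adjusted p = 0.000532). Without JU1421 replicate 1 its log2 fold change was -0.32.

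**Figure D4:**
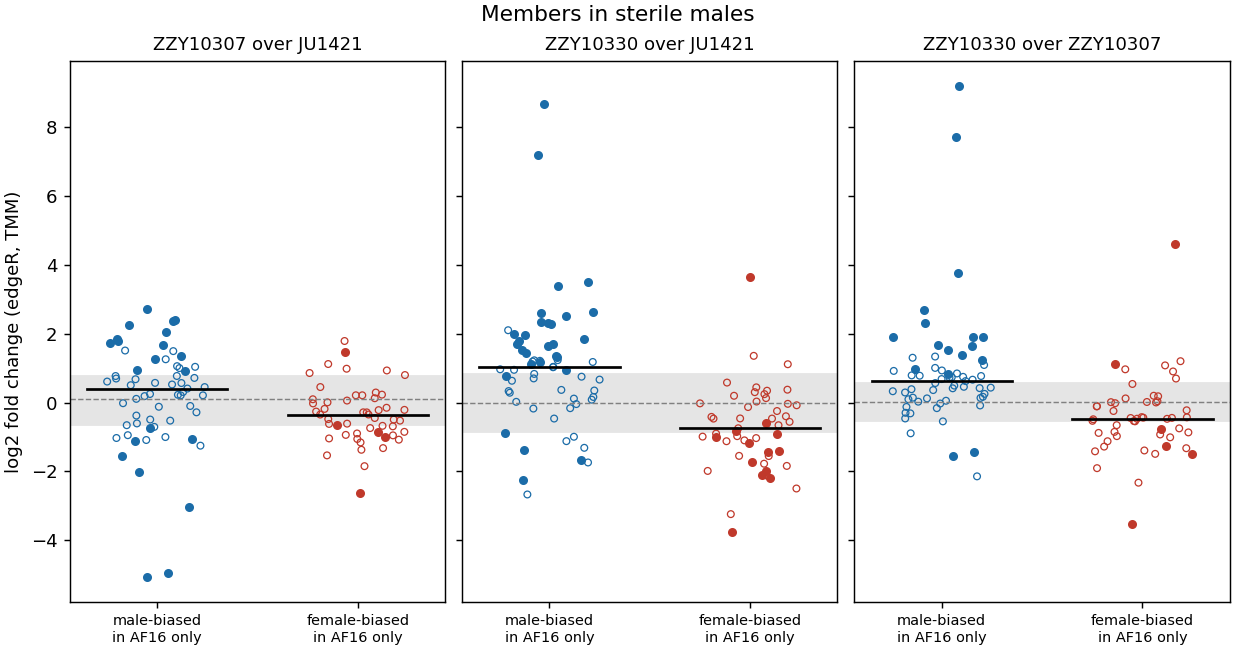
Log2 fold changes of the 61 male-biased and 51 female-biased genes in the comparisons of sterile males, in 3 panels. Filled points are genes called by edgeR, open points are not called, black bars are medians, and the grey band and dashed line give the quartiles and median of all 13289 genes; the male-biased medians of 0.41, 1.02 and 0.62 lie above the dashed line and the female-biased medians of -0.35, -0.75 and -0.47 below it.

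Set directly against each other, the sterile strains differed in 15 male-biased genes that were higher in ZZY10330 than in ZZY10307 and in 2 that were lower, where 8.51% of all genes tested were called, 5.07% higher and 3.44% lower. The median log2 fold change of the male-biased genes was 0.62, against 0.02 over all genes. Among the other eligible genes, 5.10% were higher and 3.82% lower. Of the female-biased genes, 2 were higher and 4 were lower, with a median of -0.47. With scaling by total counts alone, which moved the median of all genes to -0.13, the female-biased genes gave 1 higher and 6 lower, and the male-biased genes again 15 higher and 2 lower. When the libraries of these strains were fitted alone, without the parental males, 11 male-biased genes were higher and 1 was lower, 1 female-biased gene was higher and 3 were lower, and 768 of all genes were called in place of 1131. In the fit of all males, leaving out a library gave 662 calls without ZZY10307 replicate 2 and 582 without ZZY10307 replicate 3. The female-biased calls were 3 in place of 6 without ZZY10307 replicate 3 or ZZY10330 replicate 2.

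WBGene00030262 had 964, 1275 and 665.5 CPM in ZZY10330 males against 4.53, 0.613 and 0 CPM in ZZY10307 males, a log2 fold change of 9.20 (SE 0.54, edgeR adjusted p = 3.46e-08). Most of its few ZZY10307 counts lay in replicate 1, and without that library the log2 fold change was 11.39. WBGene00030261 had 2840, 3488 and 2398 CPM in ZZY10330 males against 18.1, 7.36 and 20.9 CPM in ZZY10307 males, a log2 fold change of 7.72 (SE 0.34, edgeR adjusted p = 1.46e-12). In ZZY10307 both genes thus had a small part of their ZZY10330 level. Against JU1421, WBGene00030262 was lower in ZZY10307 (log2 fold change -2.02, SE 0.64, edgeR adjusted p = 0.0315) and WBGene00030261 was higher (0.94, SE 0.34, edgeR adjusted p = 0.0493). Neither call was stable. That of WBGene00030262 was lost without any 1 of JU1421 replicates 1 and 2 and ZZY10307 replicates 2 and 3 (adjusted p 0.0675 to 0.158), and its log2 fold change was -4.21 without ZZY10307 replicate 1. That of WBGene00030261 was lost without any 1 of JU1421 replicates 1 and 3 and ZZY10307 replicates 1 and 3 (adjusted p 0.149 to 0.235).

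Genes lower in ZZY10330 than in ZZY10307 differed by less. WBGene00026686 had 8.42, 3.44 and 5.90 CPM in ZZY10330 males against 23.0, 15.3 and 19.7 CPM in ZZY10307 males, a log2 fold change of -1.55 (SE 0.36, edgeR adjusted p = 0.00907). It was high in AF16 males, at 353, 309 and 342 CPM, and low in JU1421 males, at 25.7, 8.22 and 14.9 CPM, so every library of both sterile strains lay below every AF16 male library. When the libraries of ZZY10330 and ZZY10307 were fitted alone, its adjusted p was 0.144. WBGene00037049 was the other male-biased gene called lower, with 25.3, 30.9 and 27.8 CPM in ZZY10330 males against 91.9, 90.5 and 70.3 CPM in ZZY10307 males, a log2 fold change of -1.44 (SE 0.27, edgeR adjusted p = 0.00177).

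WBGene00031173 had 3.19, 0 and 3.79 CPM in ZZY10330 males against 54.7, 4.91 and 28.4 CPM in ZZY10307 males, a log2 fold change of -3.53 (SE 1.06, edgeR adjusted p = 0.0490). The groups did not overlap, but the gene was not called when any single library was left out other than ZZY10307 replicate 2, with adjusted p between 0.0736 and 0.190 in those 5 cases and a log2 fold change of -2.65 without ZZY10307 replicate 1 and -2.88 without ZZY10330 replicate 2. The female-biased WBGene00027246 had 59.2, 38.3 and 131 CPM in ZZY10330 males against 4.53, 2.76 and 3.35 CPM in ZZY10307 males, a log2 fold change of 4.60 (SE 0.60, edgeR adjusted p = 4.77e-05), or 3.87 without ZZY10330 replicate 3.

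**Figure D5:**
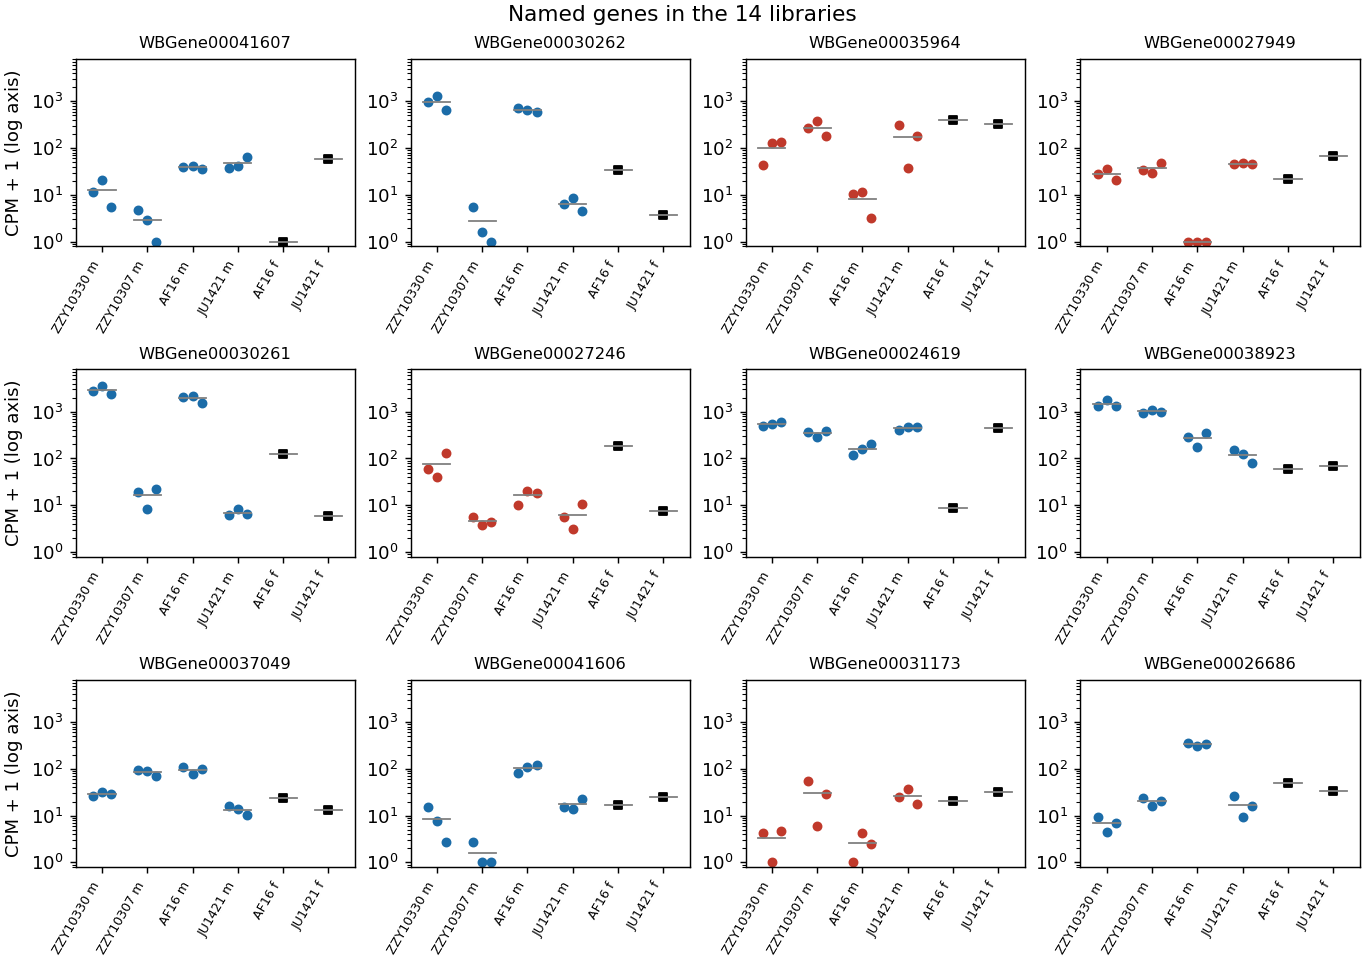
CPM plus 1 on a log axis in the 14 libraries for 12 of the 13 genes named (WBGene00029304 is not drawn), with coloured points for male libraries (blue for male-biased and red for female-biased genes), black squares for the female libraries and grey bars for group means. WBGene00030261 and WBGene00030262 stand at 665.5 CPM or more in every ZZY10330 male library and at 20.9 CPM or less in every ZZY10307 male library.

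The 3 comparisons left many members uncalled. No call was made in any of them for 26 of 61 male-biased and 34 of 51 female-biased genes. Against JU1421, 13 male-biased genes were higher in both sterile strains and 2 were lower in both, while among female-biased genes none was higher in both and 2 were lower in both. These counts share the JU1421 libraries. Over all genes tested, 22.8% were called for ZZY10307 against JU1421, 28.6% for ZZY10330 against JU1421 and 8.51% between the sterile strains. Calls across comparisons were not counted over all genes, so whether the members differ from other genes in them cannot be told.

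Levels in sterile males were also placed between those of the parents, for members whose AF16 and JU1421 male means lay at least 2-fold apart. On the log2 scale, ZZY10330 lay nearer to AF16 than to JU1421 in 22 of 34 male-biased and 18 of 44 female-biased genes. ZZY10307 lay nearer to AF16 in 16 of 34 and in 5 of 44. Among 762 other eligible genes with parents as far apart, ZZY10330 lay nearer to AF16 in 62.1% and ZZY10307 in 50.3%. These positions are descriptions, since both parents chose the members and stand in every position.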

How the data were processed

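mRNA of 12 male and 2 female libraries was sequenced. Total RNA was extracted with TRIzol and libraries were made with a stranded TruSeq kit, per the labels' protocols, from 300 ng of RNA for the males. Trimmomatic and edgeR stand in the submitters' processing notes. The sources used here do not give the aligner, counter, genome build or strand setting, so genes that share reads with near-identical or antisense copies cannot be told from their counts. The authors deposited raw counts per gene, whole numbers for 23439 WormBase identifiers in each library, per the file headers. Counts of repeat families were not used here.

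From these counts, CPM by total counts, sex ratios and membership were computed in Python 3.11.15 with pandas 2.3.3. The male libraries were tested in R 4.3.3 with edgeR 4.0.16. Genes were kept by filterByExpr with its minimum count of 10, scaled by TMM and fitted with 1 coefficient per strain by robust glmQLFit. CPM printed for single genes are not TMM-scaled, whereas log2 fold changes are. Standard errors are the log2 fold change over the square root of the F statistic. Binomial intervals are exact, at 95%.

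The members, the rules and the tests were chosen with earlier results of these data known. The text names, for each comparison, up to 2 higher and 2 lower genes with the largest change among called members with at least 10 CPM in the higher strain and no overlap between libraries, and the 2 largest AF16 sex ratios each way. WBGene00024619, WBGene00027246 and WBGene00029304 were added after their values were seen. Since the files pair no identifier with a name, planned gene lists by function, cell type markers and sequences were left out. Alternatives covered the added constant, scaling, thresholds, the filter on low counts, DESeq2 1.42.0, fits of 2 strains alone, a replicate block and leaving out each library.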

Additional observations from a re-analysis of the deposited data

Results flagged for a closer look

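In 10 of the 13 named genes, the change against JU1421 differed between the sterile strains by a direct test of ZZY10330 against ZZY10307 with edgeR and Benjamini-Hochberg adjustment. Some of the 13 were named by this same comparison or after their values were seen, so that count follows in part from the choice. Over all genes tested, 8.51% were called. Of 61 male-biased genes, 15 were called higher and 2 lower, and of 51 female-biased genes, 2 higher and 4 lower. Higher in ZZY10330 were WBGene00030262 with a log2 fold change of 9.20, WBGene00030261 with 7.72, WBGene00027246 with 4.60, WBGene00041606 with 3.76 (adjusted p = 0.00677, or a log2 fold change of 7.48 without ZZY10307 replicate 1, 3.11 without ZZY10307 replicate 2 and 2.92 without ZZY10330 replicate 1), WBGene00041607 with 2.70 (adjusted p = 0.00915, or 3.62 without ZZY10307 replicate 1) and WBGene00024619 with 0.82. Lower were WBGene00031173 with -3.53, WBGene00026686 with -1.55, WBGene00037049 with -1.44 and WBGene00029304 with -1.27. WBGene00041606 had only 79 counts in ZZY10330 and 5 in ZZY10307, with means of 7.60 and 0.58 CPM. Its libraries overlapped, at 1.69 CPM in ZZY10330 replicate 3 and 1.74 CPM in ZZY10307 replicate 1. The adjusted p of WBGene00031173, 0.0490, lay just under the threshold. WBGene00024619, with an adjusted p of 0.0162, was not called without ZZY10307 replicate 2 (0.102) or ZZY10330 replicate 3 (0.0655).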

How the results depend on the processing

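Membership followed the thresholds. A ratio of 8 in AF16 left 9 male-biased and 8 female-biased genes, a bound of 1.5 in JU1421 left 27 and 28, and no minimum level gave 274 and 156. Added constants of 0.5 and 2 CPM gave 64 and 57 and 49 and 47 genes, and TMM scaling 56 and 59. Leaving out 1 parental male library gave 52 to 71 male-biased and 51 to 71 female-biased genes.

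For ZZY10307 against JU1421, leaving out 1 library gave 16 to 21 male-biased calls, 2 to 7 female-biased calls and 2300 to 2711 over all genes. The ranges were 24 to 31, 7 to 14 and 2975 to 3683 for ZZY10330 against JU1421. Between ZZY10330 and ZZY10307 they were 13 to 17, 3 to 8 and 582 to 1159. Fitting ZZY10307 and JU1421 alone gave 12 female-biased calls in place of 5. For ZZY10330 against ZZY10307, no filter on low counts gave 10 female-biased calls in place of 6. With DESeq2 the male-biased and female-biased calls were 22 and 7, 35 and 16, and 19 and 10 in the same order of comparisons. For the named genes, 27 calls and 1 result without a call were rerun. None reversed, and 150 of 167 refits under other settings and 144 of 168 without 1 library stayed on their side of the threshold. In the fit of 2 strains alone, WBGene00026686, WBGene00031173 and WBGene00041607 lost their call between the sterile strains, with adjusted p of 0.144, 0.0753 and 0.218.

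Replicate numbers did not pair the libraries: deviations from group means correlated at -0.0714 to 0.0853 over 18 pairs of the same number and at -0.125 to 0.0863 between different numbers. With the replicate block, the male-biased, female-biased and all calls were 20, 5 and 2882 for ZZY10307 against JU1421, and 29, 12 and 3590 for ZZY10330 against JU1421. They were 16, 3 and 913 between ZZY10330 and ZZY10307, where WBGene00031173 had an adjusted p of 0.100. Depth limits the sex ratios of male-biased genes, whose median count in the AF16 female library was 18. The causes of these changes were not tested.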

Other observations

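The median coefficient of variation between replicate males was higher in members of both directions than in the 4136 other eligible genes, in each strain. Among female-biased genes it was 50.9% over the 3 AF16 male libraries, against 21.2% in the other genes. These medians were 34.5% and 26.8% in ZZY10330, 28.2% and 17.1% in ZZY10307 and 26.0% and 21.4% in JU1421 males. Male-biased genes had medians of 32.6%, 23.1%, 23.1% and 32.2% in ZZY10330, ZZY10307, AF16 and JU1421 males. In JU1421 males their median was above that of the female-biased genes. The low level of the female-biased genes in AF16 males, at a median of 7.33 CPM, moves with their spread there, and its part was not tested.

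Consecutive identifiers occurred in 2 pairs of male-biased genes and 1 pair of female-biased genes. In 5 genes the bias reached 4-fold in opposite directions in AF16 and JU1421.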
